A study of Homo sapiens with 6 samples.

Results

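Mitophagy is the removal of damaged or surplus mitochondria by autophagy. In one branch the kinase PINK1 builds up on depolarised mitochondria and marks them with phosphorylated ubiquitin, and the ubiquitin chains recruit adaptor proteins that also bind the growing autophagosome. In the other branch receptors that sit in the mitochondrial membrane, such as BNIP3, BNIP3L and FUNDC1, bind the autophagosome directly. NIPSNAP1 is a mitochondrial protein that is retained on the surface of depolarised mitochondria and binds both adaptors and autophagosome proteins, where it serves as an eat-me signal. The mRNA levels of 10 genes were examined among the 17047 genes measured. These were NIPSNAP1, its relative NIPSNAP3A, and PINK1, BNIP3, BNIP3L, FUNDC1, PHB2, SQSTM1, OPTN and TAX1BP1 of this system. They were taken from the expression table by symbol, and all 10 were found and had enough reads to be tested.

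The study sequenced poly(A) RNA from HCT116 cells, a human colorectal carcinoma line. Control cells carried shNC, a non-targeting hairpin, and the other cells carried a PLEK2 shRNA, against the pleckstrin homology domain protein PLEK2, both delivered by a pLKO.1 lentiviral vector. There were 3 libraries of each, numbered 1 to 3, and the question was what loss of PLEK2 does to gene expression in these cells. The sequence list of the study gives 1 hairpin against PLEK2, so effects of PLEK2 loss and of that hairpin cannot be told apart here. Both groups were the same cell line, and the labels name no mitochondrial uncoupler, hypoxia or other stress. The labels also do not say whether the 3 libraries of a group came from separate cultures, so p-values measure only the spread between these libraries, which may be technical. In bulk RNA, fewer cells that express a gene and less RNA per cell cannot be told apart.

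NIPSNAP1 was selected on its value in this same comparison. It was the fifth of the 5 largest falls among the 13 genes that were lower with PLEK2 shRNA at an adjusted p under 0.05, by at least 1.5-fold and with no overlap between the groups, in a fit that took the replicate number as a block. Just inside that limit stood NIPSNAP1 itself, at a log2 fold change of -0.93, and just outside it stood GRN at -0.87. The values of NIPSNAP1 are therefore given as a description with no test. Of the other 9 genes, NIPSNAP3A was listed as a family member of NIPSNAP1 and the rest for their roles in mitophagy.

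The hairpin is shown because its guide strand could also pair with other mRNAs. Its target in the PLEK2 mRNA lies on the minus strand of chr14:67397753-67397773 (GRCh38, GENCODE 44), in the coding sequence of exon 2 of 9, and starts at base 202 of the transcript. The guide is the reverse complement of the target, with bases 2 to 8 (the seed) in capitals. In the target, and in the stretches of FUNDC1 and SQSTM1 that follow, capitals mark the 7 bases complementary to that seed, AAGCTTG. The FUNDC1 stretch holds this site at chrX:44524036-44524042 (minus strand) and the SQSTM1 stretch at chr5:179836646-179836652 (plus strand), both in the 3′ UTR.
PLEK2 target: gctggtgtactacAAGCTTGa
guide strand: tCAAGCTTgtagtacaccagc
FUNDC1 3′ UTR: tttgccatctgAAGCTTGgcaaactagta
SQSTM1 3′ UTR: atagttgtgttAAGCTTGcgtagaattgc
No other transcript of the 12458 genes searched held the whole 21-base target. FUNDC1 and SQSTM1 were the 2 of the 10 genes with a seed site in their canonical transcript, where 19.8% of all genes searched had one, and 10.5% had one in the 3′ UTR. The NIPSNAP1 transcript held no seed site, and its longest run shared with the target was 8 bases, a length that 42.8% of genes reached. A match is a description of the letters and not evidence of pairing.

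The library totals ran from 14377532 to 15602732 estimated counts, and the 10 most abundant genes took 5.67% to 6.02% of them. Levels are given as CPM, counts relative to a fixed library total, after scaling by the TMM factors of edgeR, which ran from 0.984 to 1.021. PLEK2, the targeted gene, stood at 86.0, 72.6 and 82.9 CPM in shNC libraries 1, 2 and 3, and at 16.0, 32.2 and 35.0 CPM in the PLEK2 shRNA libraries of the same numbers. It was lower by 5.37-fold in pair 1, 2.26-fold in pair 2 and 2.37-fold in pair 3, in the direction of the labels, and library 1 had the lowest level. Its log2 fold change was -1.54 (SE 0.24, adjusted p = 0.684 by edgeR's quasi-likelihood test without a block), or -1.57 (SE 0.17, adjusted p = 0.00106) once the replicate number was a block. Of the epithelial markers, 8 of 9 were in the table, 1 of these (VIL1) stayed under 2 CPM, and their summed level was 7686 to 8815 CPM in shNC and 6159 to 8047 CPM in PLEK2 shRNA. Of the 7 epithelial markers tested, 6 had a lower fitted level in PLEK2 shRNA, as had 6552 of all 12959 genes. KRT8, KRT18, KRT19 and CDH1, 4 of the 7, were lower in all 3 pairs, where 21.1% of all genes were. In EPCAM, CDX2 and KRT20 the pairs went in both directions, with log2 fold changes of 0.00, -0.04 and -0.42. KRT20 had only 1.08 to 2.12 CPM. The median log2 fold change was -0.21 over the 7 against -0.002 over all genes. KRT8, KRT18, KRT19 and CDH1 had an unadjusted p under 0.05 in edgeR with the block, as had 18.3% of all genes in either direction. The groups of KRT19 did not overlap, and 5.12% of all genes were lower without overlap. None of the 7 had an adjusted p under 0.05 by edgeR with or without the block, and the part of this offset in the level of NIPSNAP1 was not tested. Of 9 blood, stromal and endothelial markers in the table (11 listed), 7 stayed under 2 CPM in every library. CD68 (36.8 to 53.9 CPM over all libraries) and COL1A1 (24.4 to 33.4 CPM) did not. The summed level of the 9 was 65.6 to 89.6 CPM in shNC and 64.9 to 76.3 CPM in PLEK2 shRNA.

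NIPSNAP1 mRNA was lower in every PLEK2 shRNA library than in every shNC library. It lies on the minus strand of chr22:29554808-29581327 (GRCh38, GENCODE 44) and has 10 exons in its canonical transcript. In shNC libraries 1, 2 and 3 it stood at 102.3, 95.9 and 98.0 CPM, and in the PLEK2 shRNA libraries at 36.8, 61.0 and 60.3 CPM. The control libraries lay close together, whereas PLEK2 shRNA library 1 lay well under libraries 2 and 3, and the groups did not overlap. The means were 98.7 ± 3.23 CPM in shNC and 52.7 ± 13.8 CPM in PLEK2 shRNA (SD, n = 3 each), the second being 53.4% of the first. NIPSNAP1 was lower by 2.78-fold in pair 1, 1.57-fold in pair 2 and 1.63-fold in pair 3. These levels rest on 1359 to 1569 reads per shNC library and 579 to 928 reads per PLEK2 shRNA library. The fitted log2 fold change was -0.91 (SE 0.17) without the block and -0.93 (SE 0.12) with it, and 17 of the 12959 genes tested had a larger fitted fall with the block.

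**Figure D1:**
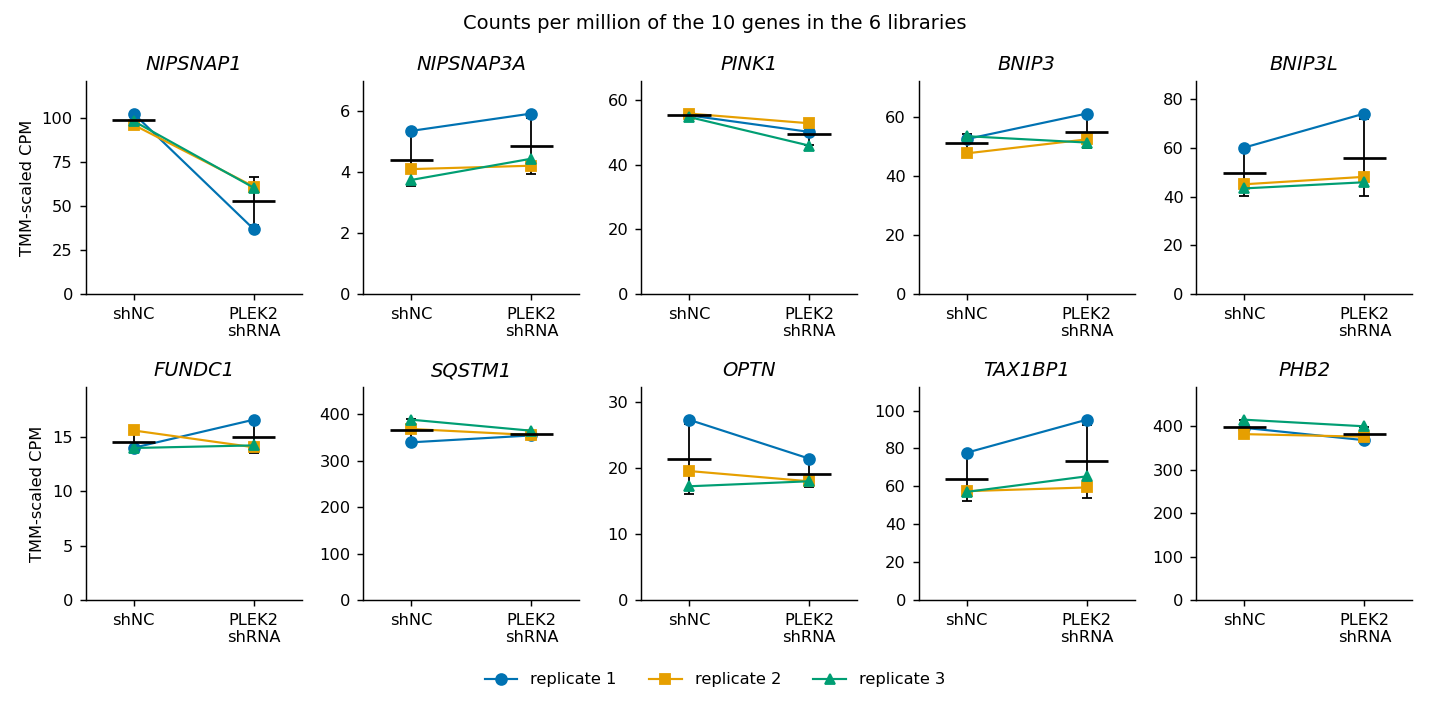
TMM-scaled CPM of the 10 genes in shNC and PLEK2 shRNA libraries, with a line joining libraries of the same number, black bars for the group mean and error bars for the SD (n = 3). NIPSNAP1 drops from 95.9 to 102.3 CPM down to 36.8 to 61.0 CPM, while the groups of the other genes overlap, except for a small offset in PINK1.

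NIPSNAP1 and PLEK2 both had their lowest value in PLEK2 shRNA library 1. On the log2 scale, PLEK2 shRNA library 1 minus the mean of libraries 2 and 3 gave a difference of -0.72 for NIPSNAP1 and -1.07 for PLEK2, against -0.08 to 0.66 for the other 9 genes. In shNC the same differences of library 1 were 0.08 for NIPSNAP1 and 0.14 for PLEK2. NIPSNAP3A, BNIP3L, OPTN and TAX1BP1 were instead high in library 1 of both groups. The difference of library 1 was 0.45 in shNC and 0.45 in PLEK2 shRNA for NIPSNAP3A, and 0.44 and 0.66 for BNIP3L. It was 0.57 and 0.25 for OPTN, and 0.44 and 0.61 for TAX1BP1. For these genes the numbered libraries differed from each other more than the groups did.

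The 3 genes whose log2 CPM followed that of NIPSNAP1 most closely over the 6 libraries were PAFAH1B2 (Pearson r = 0.997), PLEK2 (0.996) and ARL2BP (0.993). The 6 libraries fall into 2 groups and were used in common for every gene, so these values only describe a shared pattern. ARL2BP, which encodes a partner of the small GTPase ARL2, had log2 ratios of -1.18, -0.66 and -0.59 in pairs 1, 2 and 3. In PAFAH1B2, a subunit of the platelet-activating factor acetylhydrolase of the cytosol, they were -0.88, -0.33 and -0.41. All 3 genes had their largest drop in pair 1, and none belongs to the mitophagy lists.

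**Figure D2:**
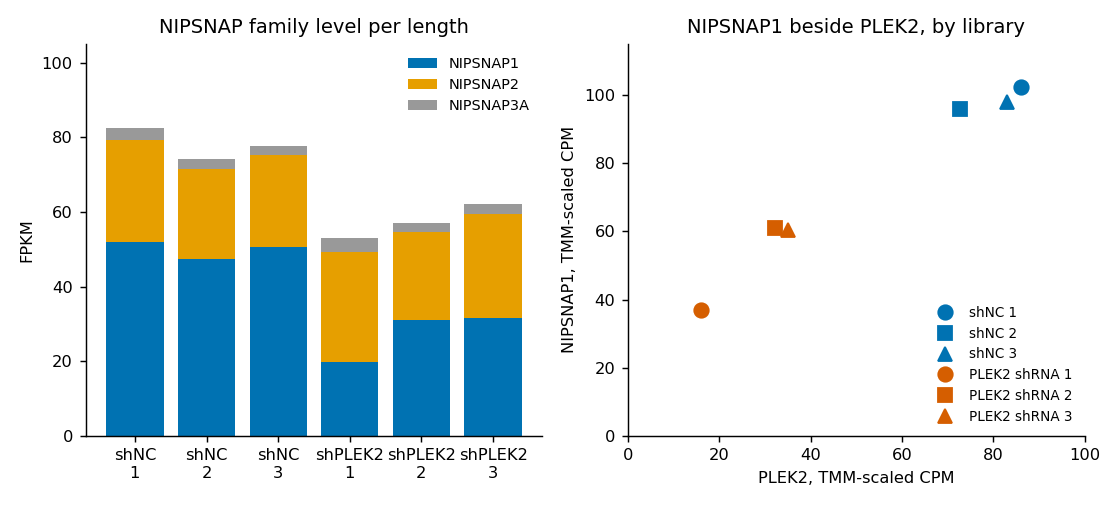
Left, FPKM of NIPSNAP1, NIPSNAP2 and NIPSNAP3A stacked for each of the 6 libraries. Right, NIPSNAP1 against PLEK2 in TMM-scaled CPM, 1 point per library, where PLEK2 shRNA library 1 is lowest on both axes (16.0 and 36.8 CPM).

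The genes beside NIPSNAP1 on chromosome 22 were examined because reads of overlapping genes can be shared. THOC5, a subunit of the mRNA export complex, overlaps the end of NIPSNAP1 by 409 bases on the same strand. It had 71.5, 83.8 and 90.8 CPM in shNC and 72.9, 84.2 and 83.5 CPM in PLEK2 shRNA, with a log2 fold change of -0.03, so its groups overlapped. The log2 fold changes of the next genes were -0.08 for AP1B1, -0.11 for NF2 and -0.12 for ZMAT5. None of these 4 neighbours had an adjusted p under 0.05 by edgeR, with or without the block. The NIPSNAP1 counts were whole numbers in all 6 libraries.

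The other NIPSNAP genes did not show the low values of NIPSNAP1. NIPSNAP2, the closest relative and partner of NIPSNAP1 on depolarised mitochondria, had 51.4, 45.8 and 46.5 CPM in shNC and 53.9, 43.5 and 51.4 CPM in PLEK2 shRNA. Its groups overlapped, and its log2 fold change was 0.05 (SE 0.11, adjusted p = 0.972 in edgeR's quasi-likelihood test). NIPSNAP3A had 5.35, 4.09 and 3.74 CPM in shNC and 5.91, 4.21 and 4.44 CPM in PLEK2 shRNA. It was slightly higher in every pair, its groups overlapped, and the log2 fold change was 0.14 (SE 0.21, adjusted p = 0.968 in the same edgeR test). It had only 54 to 93 reads per library. Without PLEK2 shRNA library 1 its log2 fold change was -0.03. NIPSNAP3B had at most 1 read in any library and was not tested.

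Per transcript length, NIPSNAP1 was the most abundant gene of the family in shNC, and its share of the family was smaller in PLEK2 shRNA. In FPKM, the authors' fragments scaled for transcript length and library size, the family summed to 82.5, 74.1 and 77.6 in the shNC libraries and to 53.1, 57.1 and 62.2 in the PLEK2 shRNA libraries. NIPSNAP1 made up 63.1%, 63.8% and 65.1% of this sum in shNC, and 37.1%, 54.4% and 50.7% in PLEK2 shRNA. The mean share was 64.0% ± 0.99 against 47.4% ± 9.10 (SD, n = 3 each). The log2 ratio of NIPSNAP1 to NIPSNAP2 in FPKM was 0.94, 0.96 and 1.02 in shNC and -0.59, 0.41 and 0.18 in PLEK2 shRNA. NIPSNAP1 was thus above NIPSNAP2 in every library but PLEK2 shRNA library 1. These shares contain the value on which NIPSNAP1 was selected and carry no test.

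None of the 9 genes other than NIPSNAP1 had an adjusted p under 0.05 by the edgeR test over all genes. Nor did any gene in that fit, 0 of 12959 (0%), whereas 400 genes (3.09%) had an unadjusted p under 0.05 and none of the 9 was among them. DESeq2 called 12 genes over the same table. With the replicate number as a block, 110 genes (0.849%) had an adjusted p under 0.05 by edgeR and again none of the 9, and 18.3% of all genes had an unadjusted p under 0.05, against 3 of the 9 (PINK1, BNIP3L and TAX1BP1). The 110 became 528, 18 and 297 without pair 1, 2 and 3, with none of the 9 among them. The 9 genes had a median log2 fold change of 0.04, beside -0.002 over all genes tested, and none reached 1.5-fold. In any pair, the largest log2 ratio in size was that of OPTN in pair 1, at -0.35. An exact two-sided permutation test of 3 libraries against 3 cannot go below p = 0.1, so single genes were read from the fit across all genes.

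**Figure D3:**
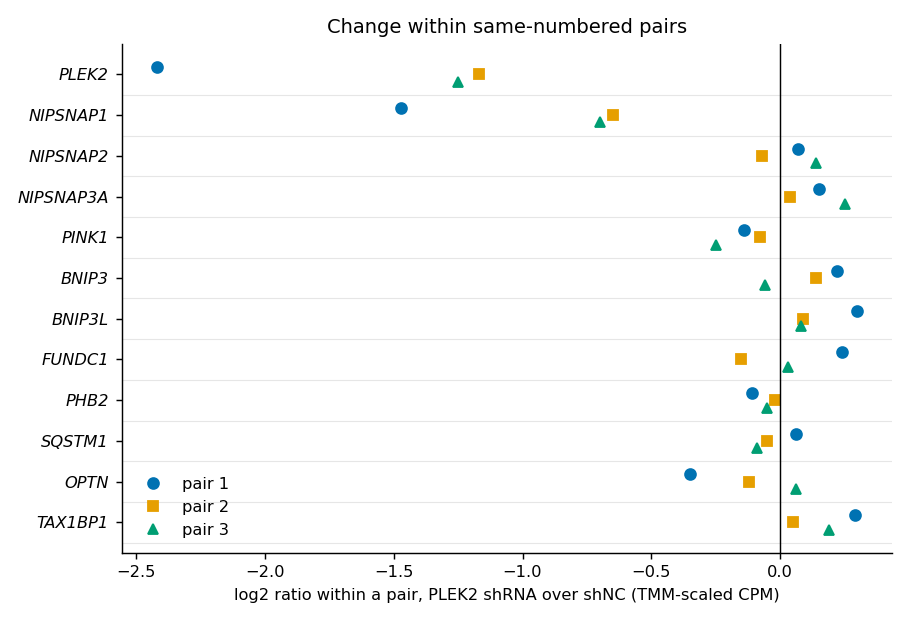
Log2 ratio of PLEK2 shRNA to shNC within each pair of same-numbered libraries, for PLEK2, the NIPSNAP genes and the other mitophagy genes, 1 point per pair. PLEK2 and NIPSNAP1 lie between -2.42 and -0.65, and every other point lies between -0.35 and 0.30.

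PINK1, the kinase that senses mitochondrial depolarisation, was the 1 gene of the 9 whose groups did not overlap. It had 55.2, 55.8 and 54.7 CPM in shNC and 50.1, 52.8 and 45.9 CPM in PLEK2 shRNA, lower in all 3 pairs. Without overlap and lower in PLEK2 shRNA were 5.12% of all genes, and without overlap and higher were 4.08%. The means were 55.2 ± 0.532 and 49.6 ± 3.47 CPM (SD, n = 3 each), and the log2 fold change was -0.16 (SE 0.09, adjusted p = 0.968 in edgeR's quasi-likelihood test). With the block it was -0.16 (SE 0.06), with an adjusted p of 0.209 in the same test. Across the 19 alternatives of processing, its log2 fold change stayed between -0.20 and -0.10. PINK1 protein is known to be set mainly by its import and breakdown, which mRNA levels do not show.

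Genes that act with PINK1 in its import, its breakdown and the ubiquitin steps after it were listed next. All 20 listed genes, PINK1 included, were tested and none passed the adjusted p in edgeR with or without the block. Their median log2 fold change was 0.01, with 6 genes higher and 4 lower in all 3 pairs, where 19.9% and 21.1% of all genes were. Without overlap between the groups, 3 were higher and 3 lower, where 4.08% and 5.12% of all genes were. VDAC1, an outer membrane channel that is ubiquitinated in PINK1-driven mitophagy, had 448, 396 and 399 CPM in shNC and 287, 365 and 355 CPM in PLEK2 shRNA, without overlap. Its log2 fold change was -0.31 (adjusted p = 0.0922 in edgeR with the block). Its log2 ratios were -0.64, -0.12 and -0.17 in pairs 1, 2 and 3, so pair 1 held most of the difference. Without pair 3 the block fit gave VDAC1 a log2 fold change of -0.37 (adjusted p = 0.00273 in edgeR). RHOT1, the Miro GTPase that ties mitochondria to motor proteins, had a log2 fold change of -0.27 (adjusted p = 0.119 in edgeR with the block), and -0.34 (adjusted p = 0.0482) without pair 3. Neither VDAC1 nor RHOT1 had an adjusted p under 0.05 in the block fit without pair 1 or without pair 2. Without pair 3, 297 of all 12988 genes tested passed. USP8, a deubiquitinase, had 0.18 (adjusted p = 0.152 in edgeR with the block).

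BNIP3 and BNIP3L, related outer membrane receptors whose genes are targets of the hypoxia-inducible factors, had their highest values in PLEK2 shRNA library 1. BNIP3 had 52.4, 47.6 and 53.4 CPM in shNC and 61.0, 52.3 and 51.2 CPM in PLEK2 shRNA. Its pairs went in both directions, and its log2 fold change was 0.10 (SE 0.10, adjusted p = 0.968 in edgeR's quasi-likelihood test), or 0.018 without PLEK2 shRNA library 1. BNIP3L had 60.2, 45.1 and 43.4 CPM in shNC and 74.1, 48.2 and 45.9 CPM in PLEK2 shRNA. BNIP3L was higher in all 3 pairs, by log2 ratios of 0.30, 0.09 and 0.08, but library 1 of shNC lay above libraries 2 and 3 of PLEK2 shRNA. Its log2 fold change was 0.18 (SE 0.20, adjusted p = 0.968 in edgeR), and 0.17 (SE 0.07, adjusted p = 0.209) with the block. Without PLEK2 shRNA library 1 the value for BNIP3L was -0.08 in the fit without a block.

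FUNDC1, an outer membrane receptor of hypoxic mitophagy, had 14.0, 15.6 and 14.0 CPM in shNC and 16.6, 14.1 and 14.2 CPM in PLEK2 shRNA. The groups overlapped, and the log2 fold change was 0.04 (SE 0.12, adjusted p = 0.979 in edgeR's quasi-likelihood test). This is the first of the genes with a seed site in the 3′ UTR, and its pairs went in both directions. Without PLEK2 shRNA library 1 its log2 fold change was -0.04. PHB2, an inner membrane prohibitin that binds the autophagosome once the outer membrane has ruptured, had 396, 382 and 415 CPM in shNC and 368, 376 and 400 CPM in PLEK2 shRNA. PHB2 was lower in all 3 pairs by small amounts, with log2 ratios of -0.11, -0.02 and -0.05. Its groups overlapped, and the log2 fold change was -0.06 (SE 0.07, adjusted p = 0.968 in edgeR).

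Of the 16 listed mitophagy receptors and their regulators, 15 were in the table and tested, and none passed the adjusted p in edgeR with or without the block. Their median log2 fold change was 0.03, and 4 were higher and 4 lower in all 3 pairs, where 19.9% and 21.1% of all genes were. FKBP8, an outer membrane receptor that escapes from mitochondria during mitophagy, had 197, 249 and 254 CPM in shNC and 183, 226 and 218 CPM in PLEK2 shRNA. FKBP8 was lower in every pair, and its log2 fold change was -0.15 (adjusted p = 0.152 in edgeR with the block). AMBRA1, a scaffold of Beclin complexes that can also recruit the autophagosome to mitochondria, had 0.13 (adjusted p = 0.304 in the same fit).

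Among the ubiquitin-binding adaptors, SQSTM1 had overlapping groups with nearly equal means. SQSTM1, also known as p62, clusters ubiquitinated cargo, and its gene had 339, 368 and 388 CPM in shNC and 354, 355 and 364 CPM in PLEK2 shRNA. The log2 fold change was -0.03 (SE 0.08, adjusted p = 0.979 in edgeR's quasi-likelihood test). Its sign turned with library totals (0.002) but not with the size factors of DESeq2 (-0.021). SQSTM1 carries the other seed site in the 3′ UTR shown with the hairpin. All 6 counts of SQSTM1 had decimals, and MGAT4B and MRNIP overlap it on the opposite strand. BNIP3L, OPTN and TAX1BP1 also overlap a coding gene on the opposite strand, and their counts were whole. Whether reads of SQSTM1 were shared with another gene was not tested. The other 9 genes had whole counts in every library.

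OPTN, an adaptor of PINK1-driven mitophagy, had 27.3, 19.6 and 17.2 CPM in shNC and 21.4, 18 and 18 CPM in PLEK2 shRNA. The groups overlapped, library 1 was the highest of each, and the log2 fold change was -0.16 (SE 0.18, adjusted p = 0.968 in edgeR's quasi-likelihood test). Without shNC library 1 the value for OPTN was 0.07. TAX1BP1, an adaptor that links ubiquitinated cargo to the autophagy machinery, had 77.8, 57.5 and 57.1 CPM in shNC and 95.2, 59.5 and 65.3 CPM in PLEK2 shRNA. TAX1BP1 was higher in all 3 pairs, with log2 ratios of 0.29, 0.05 and 0.19, yet shNC library 1 exceeded PLEK2 shRNA libraries 2 and 3. Its log2 fold change was 0.19 (SE 0.19, adjusted p = 0.968 in edgeR), 0.18 (SE 0.06, adjusted p = 0.159) with the block, and -0.04 without PLEK2 shRNA library 1 in the fit without a block.

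All 9 listed adaptors were tested, and none passed the adjusted p in edgeR in either fit. Their median log2 fold change was 0.10. TAX1BP1, CALCOCO2 and NBR1, 3 of the 9, were higher in all 3 pairs and 0 were lower, where 19.9% and 21.1% of all genes were. NBR1, an adaptor that cooperates with p62, had a log2 fold change of 0.14 (adjusted p = 0.234 in edgeR with the block). TBK1, the kinase that phosphorylates OPTN and p62, had 45.3, 42.7 and 40.9 CPM in shNC and 60.5, 42.2 and 43.4 CPM in PLEK2 shRNA, so its high value was that of library 1 alone. The log2 fold change of TBK1 was 0.17 (adjusted p = 0.289 in edgeR with the block). WDFY3, a scaffold of selective autophagy, had 0.15 and passed in the block fit without pair 1 (0.26, adjusted p = 0.045 in edgeR). In that fit 528 of all 13014 genes tested passed.

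Per transcript length, the order of the 10 genes was similar in both groups apart from NIPSNAP1. In shNC, PHB2 was highest at 303 ± 13.8 FPKM, followed by SQSTM1 at 138 ± 10.9 FPKM and NIPSNAP1 at 49.9 ± 2.43 FPKM (SD, n = 3). BNIP3 came next with 33.9 ± 2.14 FPKM, then PINK1 with 21.7 ± 0.140 and TAX1BP1 with 19.7 ± 3.56 FPKM, and the last 2 overlapped. BNIP3L at 14.6 ± 2.64 FPKM and FUNDC1 at 14.0 ± 0.875 FPKM overlapped as well, and OPTN at 6.42 ± 1.56 and NIPSNAP3A at 2.69 ± 0.507 FPKM were lowest. The other neighbours in this order did not overlap in shNC. Of these, TAX1BP1 and BNIP3L nearly touched, with the lowest TAX1BP1 library at 17.62 FPKM and the highest BNIP3L library at 17.6 FPKM. In PLEK2 shRNA, NIPSNAP1 had 27.4 ± 6.70 FPKM and ranked 4, under BNIP3 at 37.2 ± 4.04 FPKM, with no library of NIPSNAP1 reaching the lowest of BNIP3. TAX1BP1 at 23.2 ± 6.29 FPKM and PINK1 at 19.9 ± 1.33 FPKM stood at ranks 5 and 6, and their libraries overlapped.

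The genes that build the autophagosome were listed next. Of 33 listed core autophagy genes, 31 were tested and none passed the adjusted p in edgeR in either fit. MAP1LC3A and MAP1LC3C were too low to be tested. The 31 had a median log2 fold change of 0.03, and 7 were higher and 6 lower in all 3 pairs, where 19.9% and 21.1% of all genes were. GABARAPL1, an autophagosome protein of the ATG8 family, had 15.6, 14.0 and 17.0 CPM in shNC and 21.8, 17.7 and 17.6 CPM in PLEK2 shRNA. The groups of GABARAPL1 did not overlap, and its log2 fold change was 0.30 (adjusted p = 0.155 in edgeR with the block). Without overlap, 1 of the 31 was higher (GABARAPL1) and 2 were lower (ATG14 and GABARAP), where 4.08% and 5.12% of all genes were. ATG14, a subunit of the lipid kinase complex that starts autophagosomes, had -0.19 (adjusted p = 0.162), and ATG4B, the protease that processes ATG8 proteins, had -0.14 (adjusted p = 0.226), both in the same edgeR fit.

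Genes of mitochondrial mass and upkeep were listed to place NIPSNAP1 beside other nuclear genes of the organelle. Of 20 genes, 19 were tested and none passed the adjusted p in edgeR in either fit, and their median log2 fold change was 0.04. PPARGC1A was too low to be tested. TFAM had the smallest p of this list with the block, followed by VDAC1, which is in this list too. TFAM, the packaging and transcription factor of mitochondrial DNA, had 58.2, 45.3 and 41.1 CPM in shNC and 66.5, 50.9 and 53.4 CPM in PLEK2 shRNA, higher in every pair although the groups overlapped. The log2 fold change of TFAM was 0.24 (adjusted p = 0.0907 in edgeR with the block). Its adjusted p in edgeR was 0.0497 with the block and library totals and 0.028 with the block without pair 1. Those fits passed 192 of 12959 and 528 of 13014 genes tested. HSPE1, the mitochondrial chaperonin partner, had 0.10 (adjusted p = 0.394 in edgeR with the block).

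Hypoxia-inducible genes were listed because BNIP3, BNIP3L and FUNDC1 act in hypoxic cells. All 11 were tested and none passed the adjusted p in edgeR in either fit. Their median log2 fold change was -0.02, with 3 higher and 3 lower in all 3 pairs, where 19.9% and 21.1% of all genes were. SLC2A1, the glucose transporter of the plasma membrane, had -0.20 (adjusted p = 0.131 in edgeR with the block), and NDRG1 had -0.15 (adjusted p = 0.170). KDM3A, a histone demethylase, had 0.14 (adjusted p = 0.265) in the same edgeR fit.

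**Figure D4:**
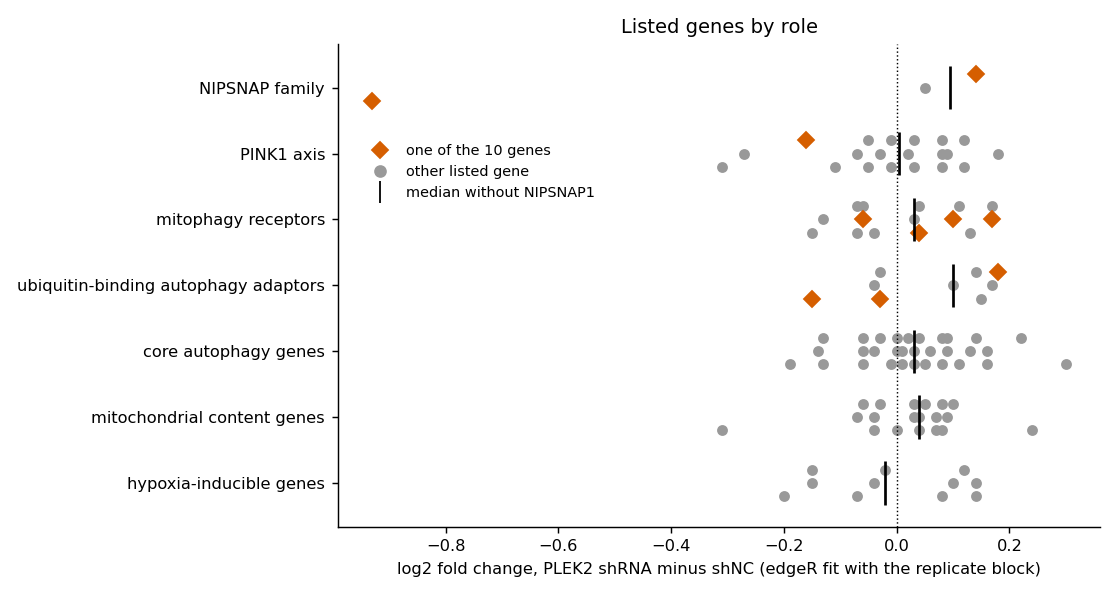
Log2 fold change (PLEK2 shRNA minus shNC, edgeR with the replicate block) of each tested gene, 1 row per list, with diamonds for the 10 genes, circles for other listed genes and a bar for the median without NIPSNAP1. NIPSNAP1 stands alone at -0.93, and every other gene lies between -0.31 and 0.30.

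Over the lists of mitophagy, autophagy, mitochondrial and hypoxia genes together, without the cell type markers, 106 of the 111 genes other than NIPSNAP1 were tested, and their log2 fold changes ran from -0.31 to 0.30 with a median of 0.03. None had an adjusted p under 0.05 by edgeR without or with the block, 0 reached 1.5-fold, and 2 (VDAC1 and RHOT1) had an unadjusted p under 0.05 without the block. With the block, 9 higher and 10 lower genes had an unadjusted p under 0.05, a share close to the 18.3% of all genes. In all 3 pairs 28 were higher and 18 lower, where 19.9% and 21.1% of all genes were. There was no overlap between groups for 5 higher and 5 lower genes, where 4.08% and 5.12% of all genes had none.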

How the data were processed

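The 10 genes and all lists were chosen with earlier results of these data known. The values were estimated counts per gene and FPKM (fragments scaled for transcript length and library size), both deposited by the authors. The submitters' processing notes name HISAT2 2.0.4, Bowtie2 2.2.5, RSEM 1.2.12, DESeq2 1.4.5 and the mouse build GRCm38.p6, without role or order, while the gene identifiers in the table are human. The counting strand was not given in the sources used here. Positions come from GENCODE 44 (GRCh38), which may not be the authors' build. The authors' group means, fold changes and p-values were not used.

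Counts were rounded, filtered with filterByExpr (minimum count 10), TMM-scaled and tested with edgeR 4.0.16 (quasi-likelihood, Benjamini-Hochberg over all 12959 genes tested), without a block. The FPKM unit was checked against counts over 3142 genes. Same-numbered libraries, paired by the numbers in the labels, deviated together (r = 0.736, 0.558 and 0.554 over 10161 genes), so the fit with a replicate block is given too. Libraries 2 and 3 also deviated together across numbers, with r = 0.358 for shNC 2 with PLEK2 shRNA 3 and 0.355 for shNC 3 with PLEK2 shRNA 2. A library 1 with a library of another number had r from -0.629 to -0.551. Much of the shared deviation thus set library 1 apart from libraries 2 and 3. Alternatives were DESeq2 1.42.0, limma 3.58.1 on log2(FPKM + 1) or log2(FPKM + 0.1), other scalings and filters, and leaving out libraries. Scripts were tested on simulated data. Genes named besides the 10 were the NIPSNAP relatives, PLEK2, the 3 smallest p with the block in each list and any listed gene past the adjusted p, the 2 nearest tested coding genes on each side of NIPSNAP1, and the 5 genes closest to it by Pearson r of log2 CPM. Some genes of this rule are not reported here. MGAT4B, MRNIP, WDFY3, CALCOCO2, GABARAP, GRN, the cell type markers and the untested genes were named after their values were seen. The counts hold no molecular identifiers.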

Additional observations from a re-analysis of the deposited data

How the results depend on the processing

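None of the 9 genes other than NIPSNAP1 had an adjusted p under 0.05 in any of the 19 alternatives. DESeq2 with the block gave no adjusted p for NIPSNAP3A, FUNDC1 and OPTN, so these could not pass there. NIPSNAP1 kept a negative log2 fold change in all 19, from -1.07 to -0.67, and from -1.02 to -0.70 with 1 library left out. The number of all genes past the adjusted p was 0 without a block, 12 with DESeq2, 110 with the replicate block, 192 with the block and library totals, and 57 with the block in DESeq2. Leaving out 1 library gave 0 to 1 genes, the 1 without PLEK2 shRNA library 1. The block fit gave 528, 18 and 297 genes without pair 1, 2 and 3. Of the listed genes other than NIPSNAP1, 1 (TFAM) passed with the block and library totals, where 192 of all 12959 genes tested did. In the block fit without pair 1, 2 (TFAM and WDFY3) passed, where 528 of all 13014 genes tested did. Without pair 3, 2 (VDAC1 and RHOT1) passed, where 297 of all 12988 genes tested did. Over all 6 libraries, the block in edgeR changed no call among the 9 genes other than NIPSNAP1, which was itself selected on that fit. Small fold changes turned sign. SQSTM1 had 0.002 with library totals, 0.004 with limma on FPKM at either pseudocount, 0.004 with the block and library totals, 0.015 with the block without pair 3. SQSTM1 also turned without shNC library 3, and OPTN without shNC library 1. Without PLEK2 shRNA library 1, NIPSNAP3A, BNIP3L, FUNDC1 and TAX1BP1 turned negative, and FUNDC1 had -0.058 with the block without pair 1. With 1 library left out, the log2 fold change ran from -0.027 to 0.32 in NIPSNAP3A, -0.076 to 0.36 in BNIP3L, -0.038 to 0.11 in FUNDC1, -0.067 to 0.026 in SQSTM1, -0.28 to 0.071 in OPTN, 0.018 to 0.15 in BNIP3, -0.096 to -0.020 in PHB2, -0.20 to -0.10 in PINK1 and -0.040 to 0.37 in TAX1BP1. The cause was not tested. With library totals the median of all genes was 0.029 against -0.002. Among the 10 genes, NIPSNAP3A had the fewest reads.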
